A study of Mus musculus with 12 samples.

Results

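The genes described here encode the nuclear subunits of the mitochondrial respiratory chain and of ATP synthase. They are the protein-coding genes of the deposited count table whose symbols begin with Nduf, Uqcr, Cox4 to Cox8 or Atp5, or are Sdha, Sdhb, Sdhc or Sdhd. This gave 92 of 47729 gene rows, of which 22048 are protein coding. Complex I contributed 36 subunit genes, its assembly factors named Ndufaf 7, complex II 4, complex III 8, complex IV 20 and ATP synthase 17. Ndufa4 and Ndufa4l2 were counted with complex IV, to which the NDUFA4 protein belongs despite its name. The symbol pattern also takes in Atp5s and Atp5sl, which are named after the enzyme but are not among its structural subunits.

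Messenger RNA was sequenced from peritoneal macrophages of C57BL/6 mice, whose ages the labels do not give. In the TG groups, mice were injected with 3% thioglycollate, an irritant broth that recruits monocyte-derived macrophages, 4 days before the lavage. In the IL4c groups, mice had 2 injections of IL-4 complex, 5 ug of IL-4 bound to 25 ug of an antibody against it, the last 2 days before the lavage; this treatment expands and alternatively activates macrophages. Adherent peritoneal cells of both kinds were then kept for 24 h without addition or with 20 ug/ml of SPARC, a secreted matricellular glycoprotein. Each of the 4 groups (TG untreated, TG with SPARC, IL4c untreated, IL4c with SPARC) had 3 libraries numbered 1 to 3, and no group received neither injection. Whether the 3 libraries of a group stem from different animals is not in the labels; the p-values reflect how far these libraries spread, which may be technical.

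Complexes I to IV sit in the inner mitochondrial membrane and pass electrons from NADH and succinate to oxygen. Complexes I, III and IV pump protons as they do so, and ATP synthase uses the returning protons to make ATP. All of complex II and most subunits of the other complexes are encoded in the nucleus, while a small core of complexes I, III, IV and ATP synthase is encoded by mitochondrial DNA. Macrophages activated by microbial products or interferons are known for glycolysis and a reduced or rewired respiratory chain, and IL-4-activated macrophages for oxidative phosphorylation.

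The libraries held 31501941 to 42288785 estimated gene counts each, and the 92 genes took 0.465% to 0.628% of them. Levels are given as CPM, counts relative to the library size as scaled by edgeR, and 3 counts equal 0.0709 to 0.0952 CPM. All members of the macrophage marker list (11 gene rows, among them Lyz2, Csf1r and Adgre1) exceeded 3 counts in the libraries, and their summed level was 13540 to 37380 CPM. Some libraries stood apart. The B cell marker sum was 2440 CPM in TG untreated 1 and 1863 CPM in TG SPARC 1, against 80.2 to 399 CPM in the other libraries. The summed level of the 92 genes was 6199 CPM in IL4c untreated 3 and 6407 CPM in IL4c SPARC 3, against 4602 to 5902 CPM elsewhere.

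Some promoter sequences of these genes are shown first, because NRF1, a transcription factor named for its role in respiratory gene expression, binds a palindrome that many respiratory genes carry. RefSeq promoter entries on GRCm38.p6, from 250 bases before to 50 after the start of transcription, matched 76 of the 92 symbols. The NRF1 motif (GCGCA, then any base, then GCGC), searched on both strands, was in a window of 19 of these 76 genes (25.0%). It was present for 11.3% of all tested protein-coding genes with an entry and for 5.19% of all genes with an entry. The share differed by complex. The motif was present for 6 of 16 ATP synthase genes, 7 of 32 complex I genes and 2 of 6 assembly factors. In complexes II, III and IV it was present for 2 of 3, 1 of 5 and 1 of 14 genes. A gene with more than 1 window counted once, if any window matched. The following stretches lie upstream of the start, are written 5′ to 3′ along the gene, and have the match in capitals. Ndufa11, Ndufa5, Ndufa8 and Ndufs6 are complex I genes that rose with SPARC in both kinds of macrophage. Sdha, the complex II flavoprotein gene, has 3 matches in its window, 1 of which is shown, and did not rise in either.
Ndufa11: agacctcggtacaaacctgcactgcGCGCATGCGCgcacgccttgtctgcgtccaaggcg
Ndufa5: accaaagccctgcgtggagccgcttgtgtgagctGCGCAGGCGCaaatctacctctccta
Ndufa8: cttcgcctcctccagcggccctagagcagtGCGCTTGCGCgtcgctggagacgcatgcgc
Ndufs6: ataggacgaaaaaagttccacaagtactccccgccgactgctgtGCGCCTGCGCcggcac
Sdha: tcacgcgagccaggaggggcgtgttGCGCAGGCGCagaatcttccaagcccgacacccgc
The stretches lie at chr17:56717677-56717736 (plus strand), chr6:24527691-24527750 (minus), chr2:36049339-36049398 (minus), chr13:73328483-73328542 (minus) and chr13:74350261-74350320 (minus). The capitalised matches in Ndufa8 and Ndufs6 are on the opposite strand. The other motifs searched were CCGGAAG, the core bound by GABP and other ETS factors, AAGATGGCG, bound by YY1, and the E-box CACGTG. They were present for 22.4%, 10.5% and 9.21% of the members with an entry and for 19.9%, 3.49% and 11.6% of such tested protein-coding genes. Of the 14 members with an entry that rose with SPARC in TG macrophages, 5 had the NRF1 letters, 3 the ETS, 4 the YY1 and 0 the E-box letters. For the 62 other members with an entry these counts were 14, 14, 4 and 7. In IL4c macrophages these counts were 5, 0, 3 and 0 of 12 against 14, 17, 5 and 7 of 64. These splits were not tested. Matches of different motifs may overlap and were counted separately. They describe letters in a window and not a site in use.

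Per length, the genes of ATP synthase and complex IV had the highest levels. The authors' FPKM values, which scale counts by gene length and library size, had a median over members of 127.8 in ATP synthase, 103.2 in complex IV, 88.0 in complex II, 83.7 in complex III and 48.6 in complex I, each member being taken at its median over the 12 libraries. Atp5b, the catalytic beta subunit of ATP synthase, had the highest median of all, 370.2 FPKM (range 309.1 to 514.0). Cox5b and Cox4i1, structural subunits of complex IV, followed with medians of 290.2 and 281.5 FPKM, and their ranges overlapped. The assembly factors Ndufaf1 to Ndufaf7, which help build complex I but are not part of it, were much lower, between 2.67 and 14.5 FPKM. Of the complex IV isoform genes, 5 did not reach the count minimum: Cox7b2, Cox8b and Cox8c were at 0 in all 12 libraries, Cox4i2 had at most 3 counts and Cox6b2 at most 10. The other 87 genes were tested.

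The first comparison asks how SPARC changes gene expression in recruited (TG) macrophages. Respiratory chain genes were higher with SPARC, by small amounts. In edgeR's quasi-likelihood test 16 of the 87 rose and 1 fell (adjusted p under 0.05), against 6.73% higher and 4.52% lower among all 15232 genes tested. The estimate was above 0 for 77 of the 87, and the median log2 fold change was 0.31, against 46.1% of estimates above 0 and a median of −0.03 over all genes. For 58 members every SPARC library was above every untreated library, and for 4 every one was below, against 16.2% and 14.2% of all genes.

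**Figure D1:**
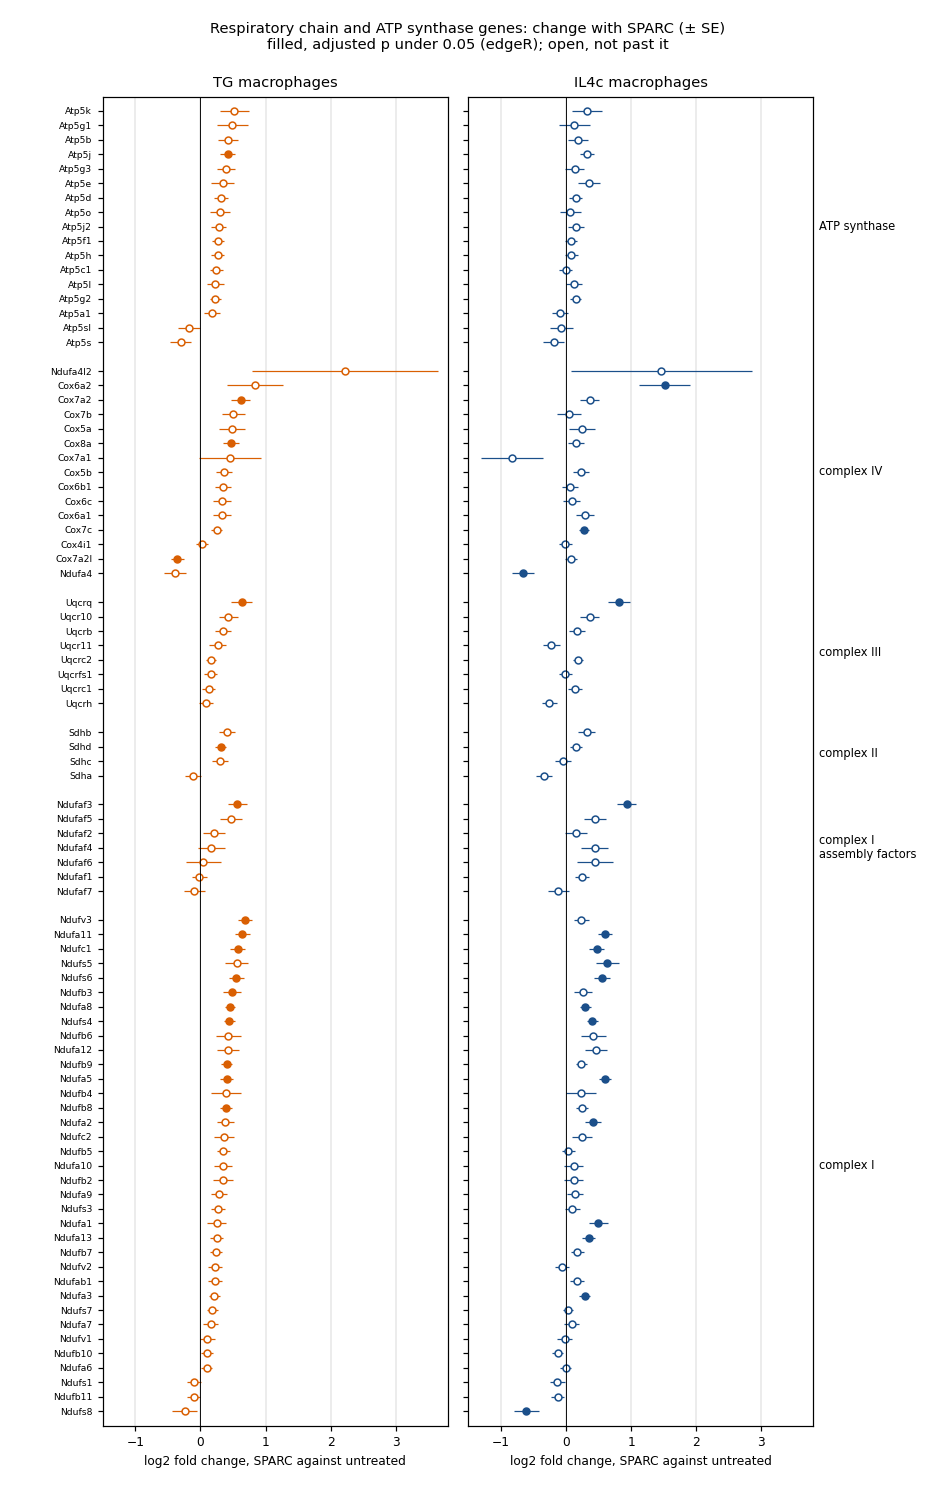
Log2 fold change with SPARC (horizontal axis, ± SE) of 86 of the 87 tested genes, by complex, in TG macrophages (left) and IL4c macrophages (right). Filled points passed the adjusted p of 0.05 in edgeR; 76 of the estimates drawn lie above 0 on the left and 66 on the right.

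Complex I, the NADH dehydrogenase, had 10 of its 36 subunit genes higher and none lower in TG macrophages. Ndufv3, a small subunit of the NADH-oxidising module (GRCm38 chromosome 17, 31520115 to 31531331, plus strand), was at 33.5, 32.8 and 31.4 CPM in the untreated libraries and at 44.8, 56.5 and 55.5 CPM with SPARC. The groups did not overlap, and the rise was 0.68 ± 0.11 on the log2 scale (edgeR adjusted p = 0.00581). Ndufa11, an accessory membrane subunit (chromosome 17, 56717767 to 56722141, plus strand), went from 15.1, 16.2 and 14.7 CPM to 26.3, 24.3 and 21.3 CPM, a rise of 0.64 ± 0.11 (adjusted p = 0.00679, edgeR). Again no SPARC library reached down to an untreated one, and both calls held in all 12 fits that left out 1 library. Part of the Ndufa11 exons (70 bases) lies opposite to exons of Vmac, and the sources used here do not say whether counting used strand.

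Ndufa8, an accessory subunit with paired cysteines, rose by 0.46 ± 0.08 from 30.9, 30.8 and 29.0 CPM to 43.8, 40.8 and 39.6 CPM (edgeR adjusted p = 0.00802), also in all 12 of those fits. Ndufs4, whose loss in mice models Leigh syndrome, rose by 0.44 ± 0.09 from 23.3, 25.4 and 22.0 CPM to 31.8, 33.3 and 31.0 CPM (edgeR adjusted p = 0.0116, and 0.0513 without TG untreated 3). Both genes were separate between the groups. The other complex I genes that rose were Ndufc1, Ndufs6, Ndufb3, Ndufb9, Ndufa5 and Ndufb8, by 0.39 to 0.57. Ndufs5 went from 20.5, 22.5 and 20.8 CPM to 33.0, 29.1 and 31.7 CPM but did not pass (adjusted p = 0.0675, edgeR). Of the assembly factors, Ndufaf3 rose by 0.56 ± 0.15, from 7.24, 7.74 and 7.64 CPM to 13.7, 9.91 and 9.85 CPM (edgeR adjusted p = 0.0358). TG SPARC 1 was highest, and the Ndufaf3 call was lost without it (0.0734), without TG untreated 1, 2 or 3 (0.0588 to 0.0881) and without IL4c SPARC 2 (0.0527). The other 6 assembly factors had estimates from −0.10 to 0.47 and did not pass.

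In complex II, the succinate dehydrogenase shared with the citric acid cycle, the membrane anchor gene Sdhd rose by 0.31 ± 0.09, from 82.6, 82.5 and 79.7 CPM to 104, 98.8 and 100.5 CPM (edgeR adjusted p = 0.0454). The groups were separate, but 9 of the 12 fits without 1 library lost the call (adjusted p of 0.0595 to 0.125): those without any of the 6 TG libraries and those without IL4c untreated 1, IL4c untreated 2 or IL4c SPARC 2. Sdhb, the iron-sulfur subunit, went from 89.6, 73.0 and 75.9 CPM to 108, 101 and 107 CPM (adjusted p = 0.0681, edgeR). Sdha was at 199, 173 and 180 CPM and then at 178, 164 and 169 CPM, with overlapping groups (estimate −0.11 ± 0.12, edgeR adjusted p = 0.621).

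Of the 8 complex III genes only Uqcrq, which encodes a small membrane subunit (chromosome 11, 53427922 to 53430831, minus strand), passed in TG macrophages. Its levels were 37.1, 37.8 and 36.7 CPM without and 62.1, 55.9 and 55.5 CPM with SPARC, a rise of 0.64 ± 0.16 (edgeR adjusted p = 0.0338). Leaving out any of the 6 TG libraries, IL4c untreated 1 or IL4c SPARC 2 ended the Uqcrq call (adjusted p of 0.0504 to 0.0997). The Rieske protein gene Uqcrfs1 and the core protein genes Uqcrc1 and Uqcrc2 had estimates of 0.16, 0.12 and 0.16 and did not pass.

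In complex IV, cytochrome c oxidase, Cox7a2 rose by 0.62 ± 0.15, from 48.9, 56.0 and 47.1 CPM to 83.9, 75.5 and 73.9 CPM (edgeR adjusted p = 0.0253), and Cox8a by 0.46 ± 0.12, from 73.0, 64.6 and 63.0 CPM to 92.9, 88.2 and 95.7 CPM (adjusted p = 0.0356, edgeR). Both encode small membrane subunits, and both were separate between the groups. The Cox7a2 call was lost without TG untreated 3 or any of the 3 TG SPARC libraries (adjusted p of 0.0517 to 0.0903). The Cox8a call was lost without TG untreated 2, TG untreated 3, any TG SPARC library or IL4c SPARC 2 (0.0525 to 0.111). Cox7a2l, which links complex III to complex IV in supercomplexes and of which C57BL/6 mice are known to carry a shortened form, was the gene that fell. It was at 152, 125 and 119 CPM in untreated and 97.1, 108 and 105 CPM in SPARC libraries (−0.35 ± 0.09, edgeR adjusted p = 0.0384). The fall of Cox7a2l passed in the fit without TG untreated 3 but in none of the other 11 (edgeR adjusted p of 0.0552 to 0.122). Near-identical copies outside the members, counted in separate rows, had 5.65% as many counts as Cox7a2l. Of the summed FPKM of Cox7a1, Cox7a2 and Cox7a2l, Cox7a2l took 63.1% ± 4.02 (SD, n = 3) without and 46.8% ± 2.67 with SPARC, with no overlap between the libraries. Cox4i1, the main regulatory subunit, was at 159 to 163 CPM without and 161 to 165 CPM with SPARC (0.02 ± 0.09, edgeR adjusted p = 0.929; the sign was opposite on FPKM and with total-count scaling).

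In ATP synthase, 1 of 17 genes passed. Atp5j, coupling factor 6 of the stator, rose by 0.42 ± 0.11, from 64.5, 60.5 and 57.5 CPM to 87.6, 76.6 and 79.3 CPM (edgeR adjusted p = 0.0384). The call was lost without TG untreated 2, TG untreated 3, any TG SPARC library, IL4c untreated 2 or IL4c SPARC 2 (0.0517 to 0.116), and 397 bases of Atp5j exons lie opposite to exons of Gabpa. Atp5b itself was at 411, 421 and 412 CPM without and 590, 538 and 541 CPM with SPARC, which did not pass (0.42 ± 0.16, edgeR adjusted p = 0.116). For 14 of the 17 genes every SPARC library was above every untreated library, against 16.2% of all genes. The exceptions were Atp5o, Atp5s and Atp5sl, and the last 2 of these had estimates below 0 (−0.31 and −0.17).

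The number of calls moved with how the libraries were paired and weighted. Libraries with the same number deviated together within an injection, and with the number as a block 52 members rose and 2 fell (Cox7a2l and Ndufa4), against 14.3% and 13.1% of all genes; by complex 22 of complex I, 2 assembly factors, 3 of complex II, 4 of complex III, 10 of complex IV and 11 of ATP synthase rose. Without the block, the 16 rises became 3 without TG untreated 3, 8 without TG SPARC 1, 8 without TG SPARC 3, 9 without TG SPARC 2, 10 without TG untreated 2 or IL4c SPARC 2, and 27 without IL4c untreated 3. Without both IL4c libraries numbered 3 they were 41. With total-count scaling 7 rose.

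Summed over members, complex I went from 1244, 1211 and 1157 CPM to 1498, 1439 and 1423 CPM in TG macrophages, and ATP synthase from 1731, 1695 and 1651 CPM to 2210, 2038 and 2032 CPM. The ratio of the means was 1.21 for complex I, 1.24 for ATP synthase, 1.18 for complex III, 1.16 for complex IV, 1.12 for complex II and 1.14 for the assembly factors. In all 6 sums the SPARC libraries lay above the untreated ones without overlap. All 92 genes together were 1.20 times higher. The B cell marker sum was 270 to 2440 CPM without and 174 to 1863 CPM with SPARC in these libraries, highest in both libraries numbered 1; without that pair 13 members rose. The neutrophil marker sum was 7.01 to 11.6 CPM without and 28.0 to 53.2 CPM with SPARC, of which 1 gene, S100a8, made up 88.9% to 98.3%. Without S100a8 the neutrophil sum was 0.212 to 1.02 CPM and 0.47 to 1.58 CPM, overlapping, and S100a9, Ly6g and Ngp had no more than 3 counts in any library. In bulk RNA such as this, fewer cells of a type and less RNA per cell cannot be told apart.

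**Figure D2:**
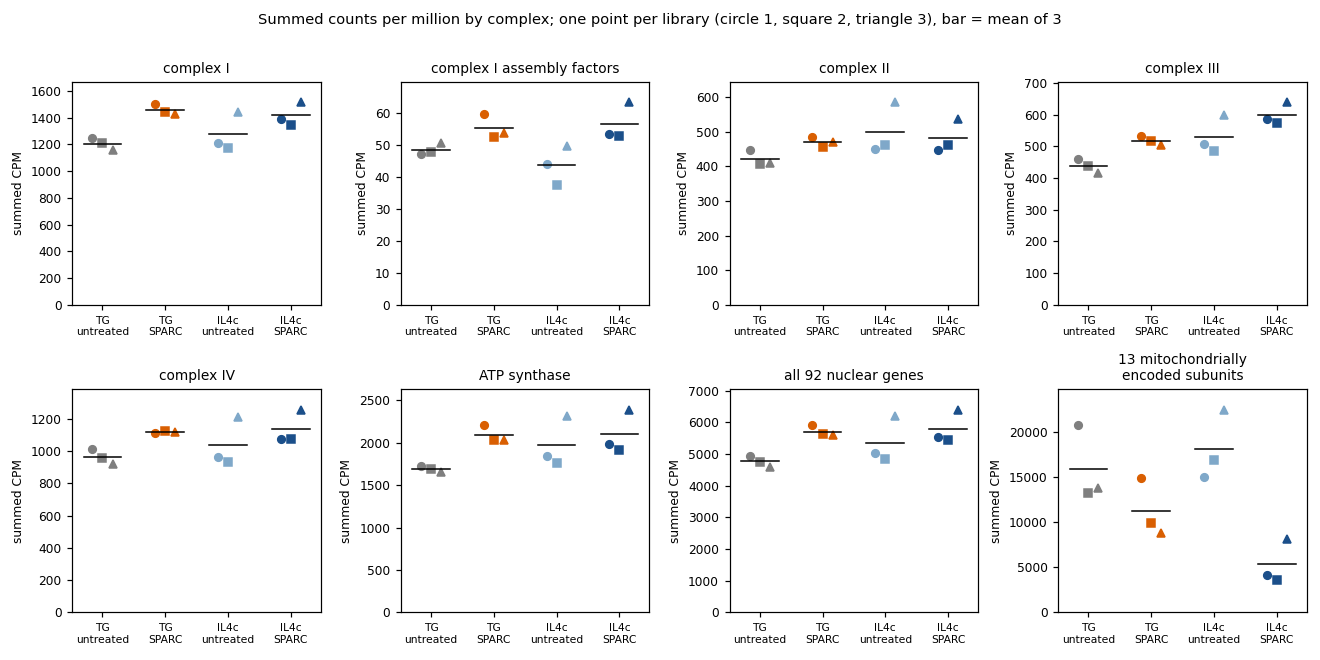
Summed CPM (vertical axis, from 0) of each complex, of all 92 nuclear genes and of the 13 mitochondrially encoded subunits in each of the 12 libraries, with the mean of 3 as a bar. The TG sums of nuclear genes separate by SPARC, the IL4c sums overlap except for the assembly factors, and the mitochondrially encoded sum is lowest in IL4c libraries with SPARC.

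The same comparison was made in IL4c macrophages. There 15 of the 87 genes rose and 2 fell, against 15.1% higher and 12.7% lower among all genes, so the share of rises was near the background while few members fell. The estimate was above 0 for 66 of 87, with a median of 0.16 against 0.00 over all genes. Most members are short genes, and other short protein-coding genes had a median of 0.145, as given below with gene length. The groups were separate upward for 19 members and downward for 4, against 25.5% and 24.8% of all genes. IL4c untreated 3 was above IL4c untreated 1 and 2 in all 6 summed complexes.

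Complex I again held most of the calls, with 11 of 36 subunit genes higher and 1 lower. Ndufa5, an accessory subunit of the matrix arm, was at 11.3, 11.9 and 13.8 CPM without and 18.4, 17.5 and 20.1 CPM with SPARC. The groups did not overlap, and the rise was 0.60 ± 0.10 (edgeR adjusted p = 0.00195). Ndufa11 went from 15.9, 15.0 and 19.1 CPM to 26.1, 23.4 and 26.4 CPM, a rise of 0.60 ± 0.11 (adjusted p = 0.00339, edgeR). Ndufs4 went from 24.8, 22.7 and 25.4 CPM to 30.3, 30.6 and 35.4 CPM (0.40 ± 0.09, edgeR adjusted p = 0.0070), and Ndufs6, a zinc-binding subunit, from 16.6, 14.7 and 19.8 CPM to 23.3, 25.0 and 26.8 CPM (0.56 ± 0.12, edgeR adjusted p = 0.00781). All 4 genes were separate between the groups, and their calls held in all 12 fits without 1 library.

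Ndufs5, a subunit of the membrane arm, rose by 0.63 ± 0.17, from 21.7, 18.6 and 30.8 CPM to 34.8, 32.1 and 43.4 CPM (edgeR adjusted p = 0.0221). IL4c untreated 3 came close to the SPARC libraries. The Ndufs5 call was lost without IL4c untreated 1, IL4c untreated 2 or IL4c SPARC 3 (edgeR adjusted p of 0.0783 to 0.0797). Copies outside the members had 8.9% as many counts as Ndufs5. Ndufa1, Ndufa13, Ndufa2, Ndufa3, Ndufa8 and Ndufc1 also rose, by 0.28 to 0.50. The gene that fell was Ndufs8, which carries iron-sulfur clusters of the matrix arm. It was at 16.6, 16.9 and 22.3 CPM without and 11.2, 9.20 and 16.1 CPM with SPARC (−0.61 ± 0.19, edgeR adjusted p = 0.0396). The groups were separate by a small gap, and the Ndufs8 call was lost without any one of IL4c untreated 1, 2 and 3, IL4c SPARC 1 and 2, and TG untreated 3 (0.0537 to 0.136).

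Among the assembly factors Ndufaf3 rose by 0.93 ± 0.15, from 7.20, 5.69 and 6.20 CPM to 12.7, 12.7 and 10.9 CPM (edgeR adjusted p = 0.00166), and the call held in all 12 fits without 1 library. A stretch of 48 bases of Ndufaf3 exons lies opposite to exons of Impdh2. The estimates of the other 6 assembly factors were −0.12 to 0.44. In complex III, Uqcrq rose by 0.81 ± 0.16, from 61.4, 45.6 and 79.5 CPM to 120, 103 and 105 CPM (edgeR adjusted p = 0.00526), with no overlap and in all 12 of those fits. No complex II gene and no ATP synthase gene passed in IL4c macrophages; 2 complex II genes and 1 ATP synthase gene had an unadjusted p under 0.05 in edgeR. Sdha was at 196, 208 and 258 CPM without and 161, 163 and 199.6 CPM with SPARC, with overlapping groups (−0.34 ± 0.12, edgeR adjusted p = 0.0665, and 0.0033 with the replicate block).

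In complex IV, Cox7c rose by 0.28 ± 0.08, from 40.2, 40.3 and 47.7 CPM to 49.1, 50.6 and 55.5 CPM (edgeR adjusted p = 0.0309). This call is uncertain, since copies elsewhere in the genome had 35.5% as many counts as Cox7c. Adding those counts ended the call (edgeR adjusted p = 0.0718). So did leaving out IL4c untreated 1, IL4c untreated 2, IL4c SPARC 2 or IL4c SPARC 3 (edgeR adjusted p of 0.0604 to 0.117). Cox6a2, the isoform of subunit 6a known from heart and skeletal muscle, rose by 1.51 ± 0.39 and is described with the injections. Ndufa4 fell and is described next.

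With the replicate number as a block, 32 members rose and 5 fell in IL4c macrophages, against 22.8% and 22.4% of all genes. Without the block, the 15 rises became 6 without IL4c untreated 2, 7 without IL4c untreated 1, 8 without IL4c SPARC 3, 30 without IL4c untreated 3 and 22 without both IL4c libraries numbered 3. The falls numbered 0 to 3 when 1 library was left out. The macrophage marker sum was lower in the SPARC libraries (13540 to 19310 CPM) than in the untreated ones (21950 to 29040 CPM), and the neutrophil marker sum was higher (26.7 to 41.2 CPM against 6.60 to 9.67 CPM). Each rests mainly on 1 gene. Lyz2 was at 4444, 5832 and 9577 CPM with and 11680, 16100 and 20370 CPM without SPARC, and without Lyz2 the macrophage sums overlapped (9097 to 10690 against 8663 to 11570 CPM). S100a8 made up 93.1% to 96.3% of the neutrophil sum, which without it was 1.29 to 2.27 CPM against 0.242 to 0.533 CPM. The part of these genes in the results was not tested.

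Ndufa4 stood at a different level in each of the 4 groups. Its product is a subunit of cytochrome c oxidase, found at the edge of the complex, and the gene lies on chromosome 6 (11900292 to 11907497, minus strand). Ndufa4 was at 71.5, 66.0 and 62.8 CPM in TG untreated, 41.4, 57.4 and 53.6 CPM in TG SPARC, 22.0, 20.1 and 26.4 CPM in IL4c untreated and 14.4, 11.4 and 17.5 CPM in IL4c SPARC libraries. The 4 groups did not overlap and stood in that order. Against TG untreated, IL4c untreated was lower by −1.55 ± 0.17 (edgeR adjusted p = 7.58e-04), in all 12 fits without 1 library. With SPARC the change was −0.66 ± 0.17 in IL4c (edgeR adjusted p = 0.0177; 0.0616 to 0.0651 without IL4c SPARC 1, IL4c SPARC 2 or IL4c untreated 3). In TG macrophages it was −0.39 ± 0.17, which did not pass (adjusted p = 0.169, edgeR, and 0.042 with the replicate block).

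AA467197, the mouse counterpart of human C15ORF48 (NMES1), encodes a paralogue known to replace NDUFA4 in complex IV during inflammation. Its symbol is outside the rule for members, and it was chosen after its values were seen. AA467197 (GRCm38 chromosome 2, 122636986 to 122641191, plus strand) was at 1.67, 4.04 and 2.34 CPM in TG untreated and at 68.3, 51.4 and 39.4 CPM in TG SPARC libraries. In IL4c macrophages it was at 14.0, 10.4 and 19.4 CPM without and at 507, 567 and 452 CPM with SPARC. Every SPARC library was far above every untreated one of the same injection, and the rises were 4.31 ± 0.37 in TG (edgeR adjusted p = 3.20e-04) and 5.12 ± 0.38 in IL4c macrophages (adjusted p = 4.50e-05, edgeR). Untreated IL4c was above untreated TG by 2.45 ± 0.35 (edgeR adjusted p = 0.00236). Of the summed FPKM of the 2 paralogues, Ndufa4 took 97.5% ± 1.09 (SD, n = 3) in TG untreated, 60.4% ± 10.6 in TG SPARC, 72.0% ± 3.81 in IL4c untreated and 4.41% ± 1.21 in IL4c SPARC libraries. These are shares of RNA per length and not of protein.

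**Figure D3:**
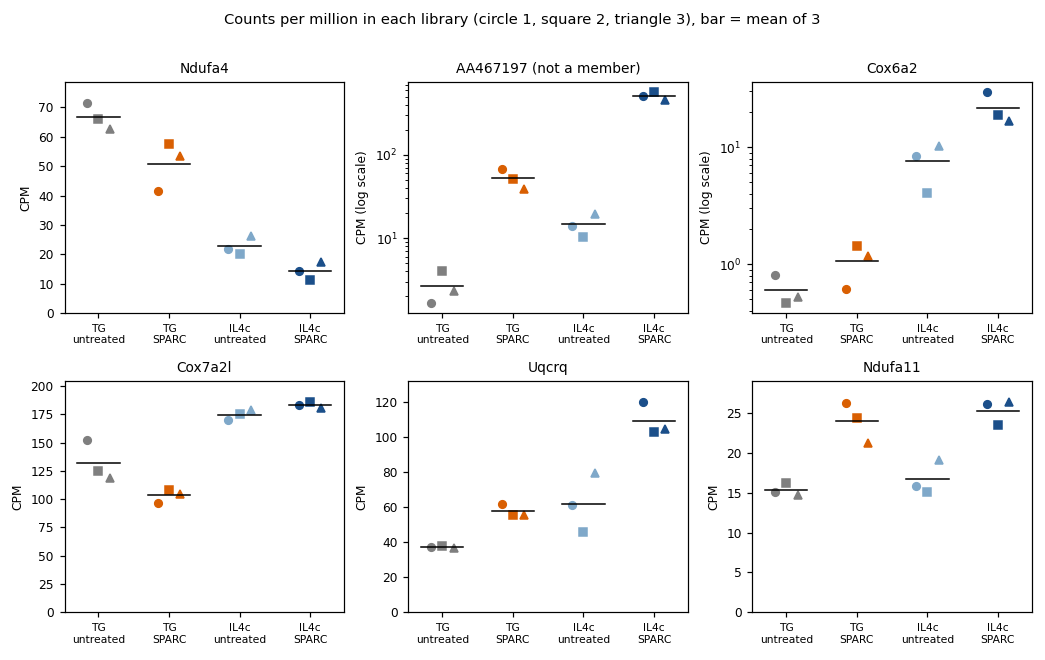
CPM of Ndufa4, of its paralogue AA467197, and of Cox6a2, Cox7a2l, Uqcrq and Ndufa11 in each of the 12 libraries, with the mean of 3 as a bar; the vertical axes of AA467197 and Cox6a2 are logarithmic. Ndufa4 stands lowest and AA467197 highest in the IL4c libraries with SPARC (14.4, 11.4 and 17.5 CPM against 507, 567 and 452 CPM).

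Both SPARC comparisons, which share no library, had 8 rises in common: Ndufa11, Ndufa5, Ndufa8, Ndufc1, Ndufs4, Ndufs6, Ndufaf3 and Uqcrq. These are 50% of the 16 rises in TG and 53.3% of the 15 in IL4c macrophages. Over all genes tested, 835 rose in both, 81.5% of the 1025 rises in TG and 36.3% of the 2301 in IL4c macrophages. Ndufb3, Ndufb8, Ndufb9, Ndufv3, Sdhd, Cox7a2, Cox8a and Atp5j passed in TG alone, and Ndufa1, Ndufa13, Ndufa2, Ndufa3, Ndufs5, Cox7c and Cox6a2 in IL4c alone. Passing in one and not the other does not show that the responses differed. In edgeR's test of the difference itself (IL4c response minus TG response) no member passed, nor did any of the 15232 genes (0.0% higher and 0.0% lower), while 3 members and 1612 genes had an unadjusted p under 0.05. Those 3 were Cox7a2l (0.42 ± 0.13), Ndufv3 (−0.45 ± 0.16) and Uqcr11 (−0.49 ± 0.18). DESeq2 called none of the members and 364 genes. With the replicate block 2 members had a lower response in IL4c, Uqcr11 and Cox7b, and none a higher one, against 1.6% lower and 1.5% higher among all genes.

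Complex I genes were also counted as catalytic core or accessory, over 35 subunit genes. Of these, 6 encode core subunits (Ndufs1, Ndufs3, Ndufs7, Ndufs8, Ndufv1 and Ndufv2), most of which hold the flavin or iron-sulfur clusters, and 29 are accessory. The split was chosen after the values were seen and was not tested. None of these 6 core genes rose in either comparison, against 6.73% of all genes in TG and 15.1% in IL4c macrophages. With so few genes this count does not set the core genes apart from that background. The median log2 fold change of the core genes was 0.145 in TG and −0.05 in IL4c macrophages. Of the accessory genes 10 and 11 rose, with medians of 0.38 and 0.24. Ndufs1, the largest core subunit, was at 58.6, 63.6 and 61.1 CPM in TG untreated and 57.1, 58.1 and 56.1 CPM in TG SPARC libraries. Ndufv1, the flavoprotein that takes electrons from NADH, was at 40.0, 39.4 and 39.0 CPM and then at 47.2, 38.9 and 41.3 CPM. With the replicate block 2 core genes (Ndufs3 and Ndufv2) and 20 accessory genes rose in TG, and 0 and 16 in IL4c macrophages. Among all genes 14.3% rose in TG and 22.8% in IL4c macrophages with the block.

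These core genes are also longer. Their coding lengths were 636 to 2181 bases (median 766.5), against 210 to 1404 bases (median 411) for the accessory genes. Across all protein-coding genes, those with an effective length of up to 1000 bases, as implied by the authors' counts and FPKM, rose more often with SPARC. In TG macrophages 20.6% of 63 short members rose against 10.6% of 1296 other short genes, and 12.5% of 24 longer members against 6.72% of 11452 other longer genes. In IL4c macrophages the shares were 19.0% of short members against 22.1% of other short genes, and 12.5% against 15.7% for longer ones. The median log2 fold change of short members was 0.346 in TG and 0.17 in IL4c macrophages, against 0.0863 and 0.145 for other short genes. For longer members it was 0.164 and 0.102, against −0.0355 and −0.0144 for other longer genes. The part of length in the difference between core and accessory genes was not tested.

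**Figure D4:**
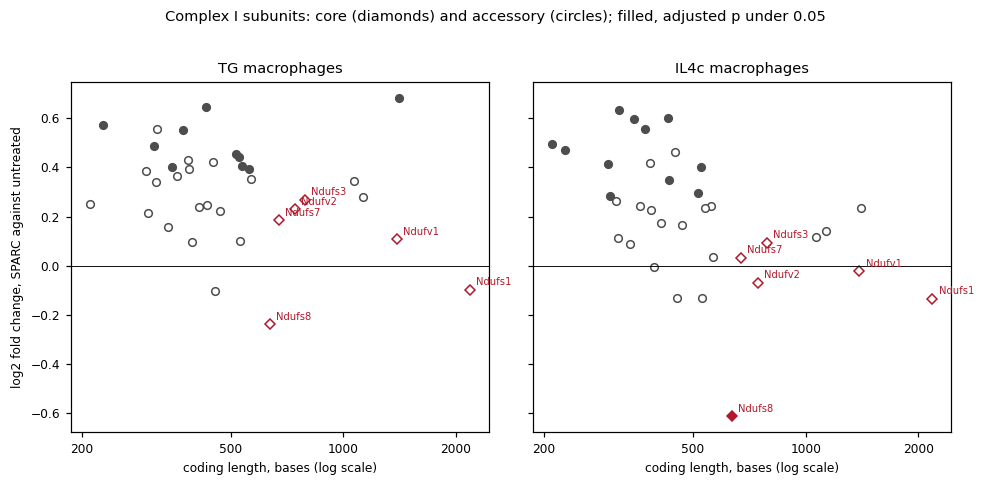
Log2 fold change with SPARC (vertical axis) of 35 complex I subunit genes against coding length (horizontal axis, log scale), for core (diamonds, named) and accessory genes (circles); filled points passed the adjusted p of 0.05. None of the 6 core genes rose in either kind of macrophage, against 6.73% (TG) and 15.1% (IL4c) of all genes, a background from which so few genes cannot be told apart. With the replicate block 2 core genes rose in TG and 0 in IL4c macrophages, against 14.3% and 22.8% of all genes. Ndufs8 fell by 0.61 in IL4c macrophages.

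The comparison of untreated IL4c with untreated TG macrophages asks how the injections set these genes before SPARC. Its libraries are also the untreated groups of both SPARC comparisons, so the values are given side by side only. In edgeR 7 of the 87 members were higher and 3 lower in IL4c, against 10.2% higher and 10.8% lower among all genes. The median was 0.09 and 59 of 87 estimates were above 0, against a median of −0.05 over all genes. For 21 members every IL4c library was above every TG library and for 4 every one was below, against 18.3% and 20.7% of all genes. Scaling by total counts shifted the median of all genes by −0.11, and with it 41 of 87 members were above 0 and their median was −0.02.

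Cox6a2 (chromosome 7, 128205435 to 128206387, minus strand) had the largest difference of the members that passed. It was at 0.80, 0.47 and 0.53 CPM in TG untreated and at 8.41, 4.09 and 10.3 CPM in IL4c untreated libraries (3.65 ± 0.44, edgeR adjusted p = 0.0012), in all 12 fits without 1 library. With SPARC it reached 29.5, 18.8 and 16.7 CPM in IL4c macrophages (1.51 ± 0.39, adjusted p = 0.0176, edgeR; 0.0725 without IL4c SPARC 1 and 0.0579 without IL4c untreated 2). In TG SPARC libraries it was at 0.61, 1.44 and 1.18 CPM, overlapping the untreated ones. Of the summed FPKM of both subunit 6a isoforms Cox6a2 took 0.64% ± 0.21 (SD, n = 3) in TG untreated, 0.90% ± 0.33 in TG SPARC, 7.79% ± 2.25 in IL4c untreated and 17.2% ± 6.27 in IL4c SPARC libraries, so Cox6a1, the isoform of most tissues, held the larger share in every group.

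Other complex III and IV genes were higher in untreated IL4c macrophages. Uqcrfs1, the Rieske iron-sulfur protein, was at 62.1, 53.5 and 46.3 CPM in TG and 74.8, 78.4 and 82.5 CPM in IL4c libraries (0.54 ± 0.10, edgeR adjusted p = 0.0056). Uqcrq went from the TG levels given above to 61.4, 45.6 and 79.5 CPM (0.74 ± 0.16, edgeR adjusted p = 0.0127), with IL4c untreated 2 nearest to TG. Cox7a2l was at 170, 175 and 178 CPM in IL4c libraries (0.40 ± 0.09, edgeR adjusted p = 0.0157; 0.0501 without TG untreated 2 and 0.0513 without IL4c untreated 2). Cox4i1 was at 187, 184 and 231 CPM (0.32 ± 0.09, edgeR adjusted p = 0.0388), a call lost in 9 of the 12 fits without 1 library (0.0517 to 0.0955), all but those without TG SPARC 1, IL4c untreated 2 and IL4c SPARC 3.

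In complex I, Ndufv3 was higher in IL4c (48.8, 45.1 and 48.0 CPM; 0.54 ± 0.11, edgeR adjusted p = 0.00995) in all 12 of those fits. Ndufa6 was higher (45.9, 47.9 and 47.5 against 40.9, 37.3 and 34.6 CPM; 0.33 ± 0.09, edgeR adjusted p = 0.0250), and lost its call without TG untreated 2 or 3 or any IL4c untreated library (0.0582 to 0.080). Ndufb7 was lower (27.2, 25.2 and 31.0 against 34.5, 38.0 and 34.8 CPM; −0.36 ± 0.10, edgeR adjusted p = 0.0262), as was Ndufa3 (35.4, 31.4 and 38.9 against 45.7, 44.9 and 40.7 CPM; −0.31 ± 0.09, adjusted p = 0.0322, edgeR). The Ndufb7 call was lost in 7 and the Ndufa3 call in 9 of the fits without 1 library (0.0514 to 0.132 and 0.0556 to 0.165). All 4 genes were separate between the groups. No gene of complex II or ATP synthase passed. Of the 17 ATP synthase genes, 6 had every IL4c library above every TG library, against 18.3% of all genes. Atp5a1 and Atp5b were among these 6. Of the summed FPKM of the 3 genes for the membrane ring subunit c, Atp5g1 took 25.8% ± 2.97 (SD, n = 3) in TG and 17.5% ± 2.11 in IL4c untreated libraries, and Atp5g2 30.9% ± 2.22 and 37.4% ± 3.61, with no overlap. The Atp5g1 and Atp5g2 shares are uncertain, since copies elsewhere had 7.79% and 49.9% as many counts as these genes.

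The number of differences between the injections also rested on single libraries. The 7 higher members became 14 without TG untreated 1, 13 without TG SPARC 1 or IL4c SPARC 3 and 4 without TG untreated 2. The 3 lower ones became 1 without TG untreated 2, TG untreated 3, TG SPARC 2, TG SPARC 3, IL4c untreated 1, IL4c untreated 2 or IL4c SPARC 1, and 2 without TG untreated 1 or IL4c SPARC 3. Without both TG libraries numbered 1, which had the high B cell markers, 15 were higher and 2 lower, and without both IL4c libraries numbered 3 there were 5 higher and 10 lower.

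Other genes of the pathway are given from lists of known components. Of the 4 subunits or partners whose symbols the pattern misses, Usmg5, a small ATP synthase subunit, rose in TG macrophages by 0.48 ± 0.12 (edgeR adjusted p = 0.0367), and Atpif1, the inhibitor of ATP synthase, fell by 0.45 ± 0.13 in IL4c macrophages (adjusted p = 0.0249, edgeR). Cyc1, the heme protein of complex III, had estimates of 0.41 ± 0.15 and 0.44 ± 0.15 and did not pass. The counts without the block that follow stand beside the shares of all genes given above. These were 6.73% higher and 4.52% lower in TG and 15.1% higher and 12.7% lower in IL4c macrophages. Counts with the replicate block stand beside 14.3% higher and 13.1% lower in TG and 22.8% and 22.4% in IL4c macrophages. Of 40 assembly factors, 5 rose and 1 fell in TG (8 and 2 with the replicate block) and 16 rose and 2 fell in IL4c macrophages (17 and 4). Cox17, a copper chaperone for complex IV, went from 30.4, 30.6 and 30.8 CPM to 44.8, 42.1 and 43.1 CPM in TG and from 30.7, 29.1 and 33.3 CPM to 48.4, 50.7 and 56.4 CPM in IL4c macrophages (0.50 ± 0.07 and 0.74 ± 0.07, edgeR adjusted p = 0.0039 and 1.82e-04). Uqcc2, which builds complex III, rose by 0.72 ± 0.16 and 1.17 ± 0.16 (edgeR adjusted p = 0.0194 and 7.69e-04), and Coa4, of complex IV, fell by 0.46 ± 0.08 and 0.35 ± 0.08 (edgeR adjusted p = 0.00626 and 0.00805).

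Of 13 electron carriers and inner membrane exchangers, 3 rose and 1 fell in TG (6 and 3 with the replicate block) and 2 rose and 4 fell in IL4c macrophages, a share of rises like that of all genes. Cycs, cytochrome c itself, went from 33.4, 40.4 and 35.4 CPM to 78.1, 59.5 and 57.5 CPM in TG and from 30.4, 25.3 and 39.2 CPM to 58.1, 59.8 and 90.8 CPM in IL4c macrophages (0.84 ± 0.21 and 1.13 ± 0.21, edgeR adjusted p = 0.0324 and 0.00395). Gpd2, the mitochondrial glycerol-3-phosphate dehydrogenase, rose in TG macrophages by 0.99 ± 0.14 (edgeR adjusted p = 0.00342), and Ucp2, a carrier of the inner membrane, fell by 1.71 ± 0.24 in IL4c macrophages (adjusted p = 9.21e-04, edgeR). Etfb, of the electron-transferring flavoprotein, fell by 0.38 ± 0.10 in TG and 0.62 ± 0.10 in IL4c macrophages (edgeR adjusted p = 0.0376 and 0.00173). In fits without 1 library, the TG calls of Usmg5, Cycs, Etfb and Uqcc2 were lost in 7, 7, 9 and 1 of the 12 and the IL4c calls of Atpif1 and Coa4 in 6 and 1. None of 13 genes of coenzyme Q synthesis passed in TG, and 2 rose and 1 fell in IL4c macrophages.

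Of 77 mitochondrial ribosomal protein genes, whose products translate the mitochondrially encoded subunits, 7 rose in TG and 26 in IL4c macrophages, with medians of 0.19 and 0.25, and 0 and 1 fell. Among all genes tested 6.73% rose in TG and 15.1% in IL4c macrophages. With the replicate block 19 of the 77 rose in TG and 40 in IL4c macrophages, against 14.3% and 22.8% of all genes. Of 15 regulators of mitochondrial biogenesis none passed in TG, and Gabpa and Tfb2m fell in IL4c macrophages. Ppargc1b, a coactivator of respiratory genes, was at 6.55, 3.99 and 4.62 CPM in untreated TG and 11.0, 12.8 and 16.3 CPM in untreated IL4c macrophages (1.40 ± 0.29, edgeR adjusted p = 0.0103). The related coactivators Pprc1 and Ppargc1a were lower in untreated IL4c macrophages. Pprc1 was at 33.0, 45.5 and 46.8 CPM in TG and 27.5, 22.8 and 24.0 CPM in IL4c libraries (−0.75 ± 0.16, edgeR adjusted p = 0.0119), with no overlap. Ppargc1a was at 0.212, 4.20 and 3.26 CPM in TG and 0.260, 0.363 and 0.107 CPM in IL4c libraries, with TG untreated 1 among the IL4c values (−3.39 ± 0.98, edgeR adjusted p = 0.0352). The Pprc1 and Ppargc1a calls were lost in 3 and 10 of the 12 fits without 1 library.

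Most of the 13 mitochondrially encoded subunits fell with SPARC in IL4c macrophages. Their summed level was 20750, 13220 and 13770 CPM in TG untreated, 14860, 9917 and 8839 CPM in TG SPARC, 15010, 16900 and 22460 CPM in IL4c untreated and 4183, 3604 and 8164 CPM in IL4c SPARC libraries. The groups overlapped in TG (ratio of means 0.704, 0 of 13 passing in edgeR, 0 with an unadjusted p under 0.05; with the replicate block 3 fell, mt-Cytb, mt-Atp8 and mt-Nd4) and were separate in IL4c macrophages (0.293), where 11 of 13 fell and the median was −2.59. The response in IL4c was lower than in TG macrophages for 0 of the 13 in edgeR's test of the difference, and for 5 with the replicate block. The cytochrome b gene mt-Cytb was at 1218, 1365 and 2026 CPM without and at 148, 118 and 410 CPM with SPARC in IL4c macrophages (−2.77 ± 0.51, edgeR adjusted p = 0.00367). The levels were uneven, and mt-Co2 did not exceed 40.6 CPM in any library. Most of the sum in IL4c macrophages was mt-Co1, at 7808, 9072 and 11910 CPM without and 3258, 2882 and 5512 CPM with SPARC. In the same libraries the summed level of the nuclear genes was 5024, 4846 and 6199 CPM without and 5533, 5437 and 6407 CPM with SPARC (ratio of means 1.08, overlapping).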

How the data were processed

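The authors deposited 2 gene tables covering the 12 libraries. The first is of estimated counts, left unscaled by the authors, and 7.97% of its values are not whole numbers. The second is of FPKM, which the authors derived by scaling to gene length and library size. The submitters' processing notes name RSEM, STAR, CASAVA and bcl2fastq 1.8.4. For the build, annotation and strand setting behind the counts, nothing was given in the sources used here. Gene positions are those of GENCODE on GRCm38, in which 99.1% of the 47729 identifiers were found when versions were ignored and 82.1% when they were kept. Promoter sequences are from RefSeq (GRCm38.p6).

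Counts were rounded and fitted with edgeR 4.0.16 in R 4.3.3 (quasi-likelihood, TMM scaling, robust), all 12 libraries in 4 groups, on the 15232 genes kept by filterByExpr with a minimum count of 10; 8 residual degrees of freedom remained, and the common BCV (biological coefficient of variation) came to 0.308. Benjamini-Hochberg adjustment ran over all 15232 genes and a gene passed at 0.05. The SE is the absolute log2 fold change over the square root of F. Sums and shares were not tested. In simulated data of this depth and spread, with few changed genes, edgeR recovered 5.97% of genes changed 1.5-fold and 28.4% of those changed 2-fold in the TG comparison over 15232 genes, and 8.96% and 29.9% in the IL4c comparison. The changed genes were drawn at random from all genes tested, whatever their level and spread. The shares recovered therefore do not give those for the members.

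Same-numbered libraries deviated from their group means together within an injection (correlation of 0.342 to 0.735 in all 6 pairs; −0.659 to 0.507 for different numbers), so the number was read as pairing them there; across injections it was −0.178 to 0.250. In TG, libraries 2 and 3 also correlated across numbers (0.507 and 0.448, against 0.599 and 0.533 within a number). The pairing read in TG therefore rests mainly on the libraries numbered 1. The labels give the numbers and nothing on what they share. No 2 libraries of a group agreed within sampling noise (lowest chi-square divided by degrees of freedom, 9.76).

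Near-identical copies were sought with blastn 2.17.0 (coding sequence against all GENCODE transcripts, at least 95% identity over 100 bases). Such copies were found for 23 members. For 10 members the counts of the copies, which are separate rows, came to over 5% of the member's own counts. These members were Ndufb4, Atp5l, Ndufab1, Atp5g2, Cox7c, Ndufa12, Uqcr10, Ndufs5, Atp5g1 and Cox7a2l, whose values are uncertain. The 4 processed pseudogenes with like symbols were left out.

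Genes were named by rule: per comparison and complex, up to 4 passing members with the smallest p and the 2 with the largest change, plus a list of catalytic and isoform genes and, of each pathway list, up to 3 passing members. The members and lists were chosen with earlier results of these data known. The alternatives tried were scaling by RLE or by total counts, DESeq2 1.42.0, no and a stricter filter (5 CPM in 3 libraries), limma 3.58.1 on log2(FPKM + 1) or log2(FPKM + 0.1) for genes of at least 1 FPKM in 3 libraries and without that filter, the compared groups alone, the replicate block, each library left out, and fits without both TG libraries numbered 1 or both IL4c libraries numbered 3. The last 2 of these, and adding the counts of copies to members, were chosen after seeing the data. The core and accessory split and both plots of changes leave out 1 member, which is not reported here. Members outside this naming rule that the text gives by value were chosen after their values were seen.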

Additional observations from a re-analysis of the deposited data

Results flagged for a closer look

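The SPARC response of 2 members differed between IL4c and TG macrophages by a test of the difference itself, in the fit with the replicate number as a block (edgeR). In that fit the response was lower in IL4c for 1.6% and higher for 1.5% of all genes tested. Uqcr11, a small subunit of complex III, had a response lower by −0.49 ± 0.09 on the log2 scale in IL4c (adjusted p = 0.0426). It was at 29.2, 33.2 and 29.5 CPM in TG untreated and 35.0, 37.2 and 38.0 CPM in TG SPARC libraries, and at 25.3, 24.7 and 33.4 CPM in IL4c untreated and 22.5, 21.3 and 27.3 CPM in IL4c SPARC libraries. Cox7b, a small subunit of complex IV, had a response lower by −0.45 ± 0.08 (edgeR adjusted p = 0.0381), with 68.7, 63.5 and 59.4 against 94.8, 89.6 and 87.0 CPM in TG and 56.7, 51.6 and 81.8 against 58.4, 57.0 and 80.5 CPM in IL4c libraries. Without the block neither passed (edgeR adjusted p = 0.370 for Uqcr11 and 0.582 for Cox7b), and no member did.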

How the results depend on the processing

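None of the 32 calls of named members changed direction under the alternatives run. Of 89 estimates of catalytic and isoform genes that did not pass, 28 changed sign under at least 1 alternative, among them Cox4i1 and Ndufv1 with SPARC in TG macrophages on FPKM. Members higher with SPARC in TG macrophages numbered 16 in the fit reported, 7 with total-count scaling, 27 with DESeq2, 7 with log2(FPKM + 1), 7 with log2(FPKM + 0.1), 2 with log2(FPKM + 1) unfiltered, 52 with the replicate block and 41 without both IL4c libraries numbered 3; leaving out 1 library gave 3 to 27. The 1 lower member (Cox7a2l) became 0 with no low-count filter, with unfiltered FPKM, with the TG groups alone, without either pair (TG libraries numbered 1, IL4c libraries numbered 3), and 2 with the replicate block; leaving out 1 library gave 0 to 1. In IL4c macrophages 15 were higher, 32 with the replicate block, and 6 to 30 without 1 library; 2 were lower, 1 with total-count scaling, 1 with unfiltered FPKM, 5 with the replicate block, 5 without both TG libraries numbered 1, and 0 to 3 without 1 library. Between untreated IL4c and TG, 7 were higher, 13 with RLE scaling, 4 with total-count scaling, 17 with DESeq2, 14 with the strict filter, 3 with log2(FPKM + 1), 3 with log2(FPKM + 0.1), 2 with unfiltered FPKM, 4 with these groups alone, 15 without both TG libraries numbered 1, and 4 to 14 without 1 library. There 3 were lower, 1 with no low-count filter, 5 with log2(FPKM + 1), 5 with log2(FPKM + 0.1), 1 with these groups alone, 10 without both IL4c libraries numbered 3, and 1 to 4 without 1 library. For this comparison the replicate number was fitted as a term common to both injections, which gave 8 higher and 3 lower. The difference between the responses had 0 lower members, 2 with the replicate block, 1 without both TG libraries numbered 1 and 0 to 0 without 1 library. Fits with fewer libraries or groups test with fewer residual degrees of freedom, and their counts moved both up and down. The cause of these moves was not tested for any alternative. Few counts limit isoform genes such as Cox4i2 (0 to 3), Cox7a1 (8 to 40) and, in TG libraries, Cox6a2 (18 to 50).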
